A study of Mus musculus with 4 samples.

Results

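The 32 genes described here encode enzymes and transporters of glucose breakdown, fatty acid breakdown and the tricarboxylic acid (TCA) cycle, and they were followed in peritoneal macrophages, with the B cells and T cells of the same libraries for comparison. They were chosen by gene symbol, as 13 genes of glycolysis, 12 of fatty acid oxidation and 7 of the TCA cycle, and all 32 were found among the 31253 genes of the deposited single-cell matrix. Single-cell transcriptomes had been recorded from viable cells sorted for F4/80, the product of Adgre1 on the macrophage surface, after a 10 mL wash of the peritoneal cavity and a 100 µm strainer.

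The labels give 4 groups of mice aged 24 weeks with 1 sample each. In the first, Apoe-/- mice, which lack apolipoprotein E, a carrier of cholesterol, ate a high-fat diet (HFD) and received anti-CVI-mAb, a monoclonal antibody against collagen VI. The second was of Apoe-/- mice on HFD given buffer, the third of Apoe-/- mice on a normal diet, and the fourth of C57BL/6 mice on a normal diet, the background strain of the Apoe-/- mice. HFD held 21% fat and 0.15% cholesterol and was fed for 20 weeks from 4 weeks of age, with normal diet again from a week before immunization. At week 21 the antibody was injected into the peritoneal cavity at 3 mg in 200 µL, and the other mice received the same volume of buffer. Male sex is stated only for the Apoe-/- mice fed HFD, and the number of animals behind a sample was not given in the sources used here.

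Barcodes in the matrix carry 1 of 4 suffixes, taken as libraries 1 to 4. Nothing in the labels or headers ties a suffix to a sample, so no genotype, diet or antibody comparison was made and every value belongs to a library of unknown group. Unless said otherwise, 4 values in a row are those of libraries 1 to 4 in that order. Each group has 1 sample, so there is no replicate and nothing was tested. A level is in CPM, the UMIs (molecular identifiers, 1 per captured transcript) of a gene per 1000000 UMIs of the barcodes summed. Ratios are log2 ratios of CPM within a library, so that 1 means 2-fold. Intervals are exact 95% intervals and cover counting error only.

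Glycolysis splits glucose into pyruvate in the cytosol, and lactate dehydrogenase can turn pyruvate into lactate. Fatty acids enter mitochondria as carnitine esters and are shortened there by beta-oxidation. Both routes supply acetyl-CoA to the TCA cycle, which passes electrons to the respiratory chain. In macrophages, strong glycolysis is known from inflammatory activation, and fatty acid oxidation with an intact TCA cycle from alternative activation. Transcript levels do not measure flux through any of these routes.

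Macrophages were barcodes with at least 2 UMIs of Adgre1 and none of Cd79a or Cd3e, B cells had at least 3 UMIs of Cd79a, and T cells at least 2 UMIs of Cd3d, Cd3e and Cd3g together, both without Adgre1. B and T cells shared 10, 4, 6 and 7 barcodes. These rules gave 1538, 4218, 4334 and 5017 macrophages, 586, 576, 311 and 281 B cells, and 116, 104, 158 and 139 T cells. Libraries held 40321459, 74067998, 73429015 and 78083803 UMIs, and macrophages had medians of 8218.5, 12506.5, 13951 and 12903 UMIs. Apoe, the gene deleted in 3 of the 4 groups, supplied 0.00301, 0.0863, 0.0738 and 2.98% of macrophage UMIs, and no library was assigned from it. The 8 macrophage markers summed to between 40794 and 66630 CPM in macrophages, between 1014 and 1639 CPM in B cells and between 1420.0 and 2553 CPM in T cells. Adgre1 was at 0 in both lymphocyte classes by the gate. Macrophage transcripts were also seen in lymphocytes at a low level: Lyz2, the lysozyme gene of myeloid cells, stood in B cells at 2.25, 2.32, 2.92 and 2.33% of its macrophage level. In T cells it was at 3.30, 5.35, 2.91 and 2.40%. Conversely, the 6 B cell markers, Cd79a at 0 by the gate, summed to 141, 18.5, 7.64 and 6.79 CPM in macrophages. T cells of library 1 also carried B cell markers at 3517 CPM. Without macrophages that carried Cd79b, Ms4a1 or Cd3d and lymphocytes that carried Csf1r or Hbb-bs, which left 446 of 586 B cells and 99 of 116 T cells in library 1, the branch medians described below were 1.03, 0.64 and -0.16 against B cells and 0.39, 0.43 and -0.38 against T cells, for glycolysis, fatty acid oxidation and the TCA cycle. Without lymphocytes that carried markers of both lymphocyte kinds, which left 78 T cells in library 1, they were 1.05, 0.62 and -0.18 against B cells and 0.37, 0.44 and -0.41 against T cells.

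All 32 genes are protein-coding. On GRCm38 (GENCODE M21, positions counted from 1), Slc2a1 lies at chr4:119108711-119137983, Hk1 at chr10:62268855-62379908, Pfkl at chr10:77986947-78010083, Ldha at chr7:46841475-46855627 and Idh3a at chr9:54586334-54604661. Exons of a gene on the other strand overlap Slc2a1 (Gm12868), Hk1 (Hk1os), Pfkp (Pitrm1), Tpi1 (Spsb2), Gapdh (Iffo1), Acadvl (Dvl2), Hadha (Garem2) and Etfdh (4930579G24Rik), and Gm45233 overlaps Etfb on the same strand. Such pairs may share reads, and whether counting used strand was not stated.

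Of the 32 genes, 30 matched a promoter window in RefSeq (build GRCm38.p6), reaching from 250 bases before to 50 bases after the start of transcription; Acaa2 and Idh3a were not matched. ACGTG is a form of the core of the element bound by hypoxia-inducible factor, and also of many E-boxes. It was searched on either strand, where the other strand reads CACGT. It lay in the windows of 8 of 13 glycolysis genes (61.5%), 1 of 11 fatty acid oxidation genes (9.09%) and 2 of 6 TCA cycle genes (33.3%), against 21.8% of 27025 genes. GCGTG, searched likewise, lay in 61.5% of glycolysis, 54.5% of fatty acid oxidation and 83.3% of TCA cycle genes, against 35.2% of all genes. ACGTG or GCGTG lay in 84.6% of glycolysis, 54.5% of fatty acid oxidation and 83.3% of TCA cycle genes, against 46.7% of all genes. AGGTCA, a motif read by nuclear receptors, lay in 8 of 30 windows (26.7%, against 18.1% of all genes). The longer TCAAGGTCA, which contains it, lay in none of the 30 (0.466% of all genes). A match is a description of letters and not a binding site. The windows of 4 genes past the rule of size against B cells, given below, follow. Slc2a1 was past it on the lower side and Hk1, Pfkl and Ldha on the higher side. Capitals mark ACGTG or CACGT, and in CACGTG both strands match. Slc2a1 is at chr4:119108495-119108794 on the plus strand, the second window of Hk1 at chr10:62340372-62340671 on the minus strand, Pfkl at chr10:78009758-78010057 on the minus strand and Ldha at chr7:46845554-46845853 on the plus strand. The other windows of Hk1, at chr10:62379859-62380158, and of Ldha, at chr7:46846832-46847131, hold neither ACGTG nor CACGT.
Slc2a1: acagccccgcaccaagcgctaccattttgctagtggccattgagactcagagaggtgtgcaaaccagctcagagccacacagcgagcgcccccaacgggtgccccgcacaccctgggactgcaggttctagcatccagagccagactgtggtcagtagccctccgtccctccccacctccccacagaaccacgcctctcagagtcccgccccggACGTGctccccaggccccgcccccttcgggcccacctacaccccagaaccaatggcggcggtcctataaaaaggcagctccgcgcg
Hk1: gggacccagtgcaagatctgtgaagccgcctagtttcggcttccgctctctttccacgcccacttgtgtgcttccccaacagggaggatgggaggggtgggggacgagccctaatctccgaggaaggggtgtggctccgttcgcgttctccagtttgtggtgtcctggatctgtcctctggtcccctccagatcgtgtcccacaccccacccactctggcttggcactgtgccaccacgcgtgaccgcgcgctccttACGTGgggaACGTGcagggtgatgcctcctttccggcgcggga
Pfkl: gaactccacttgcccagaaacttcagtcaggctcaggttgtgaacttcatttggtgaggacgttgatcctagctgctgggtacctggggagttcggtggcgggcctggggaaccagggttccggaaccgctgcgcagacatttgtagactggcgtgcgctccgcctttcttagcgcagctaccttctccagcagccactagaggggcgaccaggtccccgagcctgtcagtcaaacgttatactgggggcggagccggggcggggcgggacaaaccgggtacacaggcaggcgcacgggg
Ldha: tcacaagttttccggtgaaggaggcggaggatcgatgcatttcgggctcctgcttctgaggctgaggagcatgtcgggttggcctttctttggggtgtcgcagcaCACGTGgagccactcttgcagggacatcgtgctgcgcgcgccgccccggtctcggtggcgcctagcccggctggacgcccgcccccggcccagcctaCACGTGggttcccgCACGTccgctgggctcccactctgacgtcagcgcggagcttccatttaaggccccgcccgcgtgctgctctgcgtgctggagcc
In the windows shown, Ldha had 5 matches, Hk1 had 2, Slc2a1 had 1 and Pfkl had none, so genes on both sides of the comparison with B cells hold the motif.

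Summed over each branch, macrophages were above B cells in glycolysis and fatty acid oxidation and slightly below them in the 7 TCA cycle genes, in every library. The 13 glycolysis genes together stood at 2188 (2163 to 2213), 3995 (3978 to 4012), 3507 (3492 to 3521) and 2895 (2882 to 2908) CPM in macrophages and at 1419, 1677, 1582 and 1544 CPM in B cells. Ratios were 0.62, 1.25, 1.15 and 0.91, with a median of 1.03, so all 4 macrophage sums lay above all 4 B cell sums. The 12 fatty acid oxidation genes summed to 765, 696, 755 and 739 CPM in macrophages and 500.5, 458, 449 and 473 CPM in B cells, at ratios of 0.61, 0.60, 0.75 and 0.64 (median 0.63). Here too the sums of both classes did not overlap. TCA cycle genes summed to 485, 522, 428 and 406 CPM in macrophages, against 528, 534, 503 and 469 CPM in B cells. Their ratios of -0.12, -0.033, -0.23 and -0.21 (median -0.17) were small, and the 2 ranges overlapped. The counting interval of the library 2 ratio, -0.091 to 0.025, included 0. The median ratio of all genes tested was 0.0016 in this comparison, and that of the members was 0.51.

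Against T cells, macrophages were higher in fatty acid oxidation and lower in the 7 TCA cycle genes in every library, the second of these not with TMM scaling. Glycolysis had no single direction. Glycolysis genes summed to 2569, 2553, 2425 and 2423 CPM in T cells, and the ratio of macrophages to T cells was -0.23, 0.65, 0.53 and 0.26 (median 0.39). Library 1 macrophages were thus below the T cells of their library, and the other 3 were above. That order in library 1 depended on the barcodes used: all 4 ratios were above 0 after each barcode was thinned to 3000 UMIs (0.046 to 0.63) and without lymphocytes that carried markers of both kinds (0.020 to 0.64). For fatty acid oxidation, T cells stood at 607, 513, 557 and 540.4 CPM, at ratios of 0.33, 0.44, 0.44 and 0.45 (median 0.44), with every macrophage sum above every T cell sum. TCA cycle genes were at 627, 554, 565 and 560.1 CPM in T cells, above every macrophage sum, with ratios of -0.37, -0.087, -0.40 and -0.47 (median -0.39). The counting interval of the library 2 ratio, -0.24 to 0.077, included 0. With TMM scaling (edgeR's trimmed mean of M values in place of total UMIs), which moved the median of all genes by 0.28, the glycolysis ratio had a median of 0.73 (-0.0046 to 0.89) and the TCA ratio ranged between -0.14 and 0.16 over libraries, above 0 in library 2. The median over all genes was -0.21 and that over the members 0.10.

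The share of UMIs taken by ribosomal protein genes moved with these classes: it was 15.8, 21.4, 22.1 and 22.3% in macrophages, 29.7, 35.3, 37.3 and 37.6% in B cells and 26.3, 32.8, 35.0 and 35.6% in T cells. Leaving mitochondrial, ribosomal protein, immunoglobulin and Apoe genes out of the totals, called the other denominator from here on, lowered every ratio of macrophages to B cells by about the same amount, with a median shift of -0.40. The branch medians against B cells were then 0.62 for glycolysis, 0.24 for fatty acid oxidation and -0.55 for the TCA cycle, so their directions and their order were kept. The same step moved the ratios to T cells by -0.25, to medians of 0.12, 0.16 and -0.65.

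**Figure D1:**
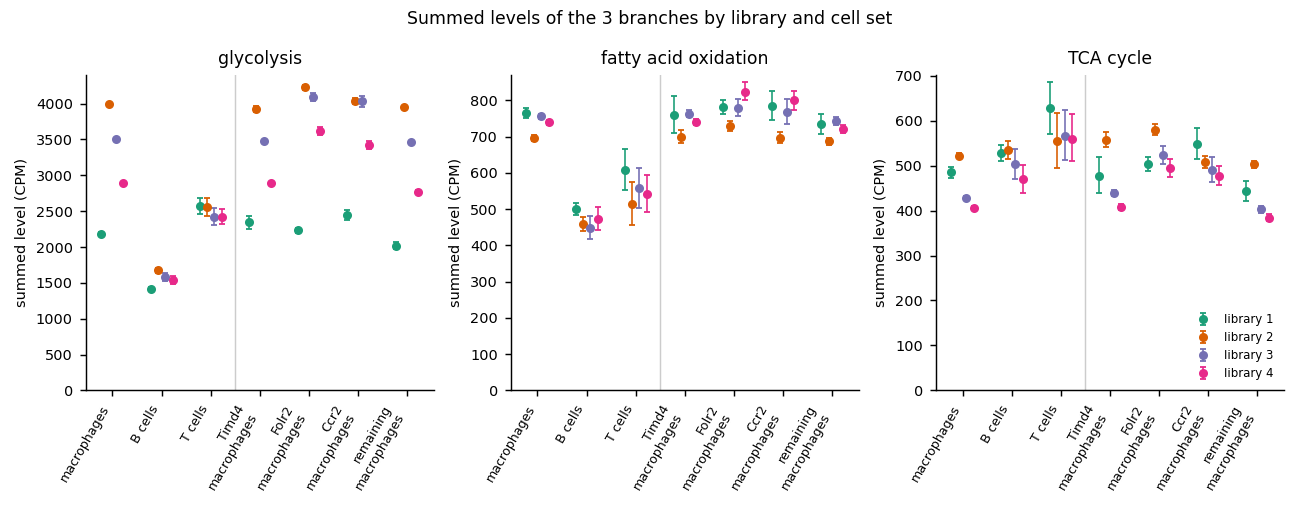
Summed level in CPM (vertical axes) of the glycolysis, fatty acid oxidation and TCA cycle genes in macrophages, B cells, T cells and 4 sets of macrophages, with 1 point per library and bars for the exact 95% counting interval. Glycolysis in macrophages spans 2188 to 3995 CPM, whereas fatty acid oxidation stays between 696 and 765 CPM; in macrophages relative to T cells the TCA order changes sign in library 2 with TMM scaling.

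Gene by gene, a member was past the rule of size against a lymphocyte class when it reached 20 CPM in the higher class and differed at least 2-fold in the same direction in every library. Against B cells 28 of the 32 reached the minimum, with Hk2, Cpt2, Slc25a20 and Etfdh below it. Of the 28, Hk1, Pfkl, Ldha and Acaa2 were past the rule on the higher side, 4 genes where 16% of 5368 genes were. Slc2a1 was past it on the lower side, against 9.54% of all genes. As shares of the 28, the members past the rule on either side were not above the shares of all genes. With TMM scaling Pfkl and Acaa2 were past it on the higher side, after thinning Hk1, Pfkl and Ldha, and with the other denominator only Pfkl. With a mitochondrial limit of 5%, which left 49, 82, 68 and 62 B cells, only Acaa2 was. Pfkl then had a ratio of 0.95 in library 3. Without lymphocytes that carried markers of both kinds, Hk1 was not past it. Shares over all genes were not counted in these settings. By sign alone, 19 members were higher in macrophages of every library, against 39.7% of all genes, and 5 were lower, against 39% of all genes. The higher ones were 10 of 12 glycolysis genes and 9 of 9 fatty acid oxidation genes at the minimum, but 0 of 7 TCA cycle genes, of which 4 were lower. With the other denominator, which lowered the ratios of all genes alike, 14 were higher and 9 lower. Shares over all genes were not counted under it. Tpi1, Acadl, Hadha, Acadm and Etfb then had no single sign, the first 3 with medians below 0, and Ogdh, Sdha, Mdh2 and Slc25a20 joined the lower ones, so that all 7 TCA cycle genes were lower in every library.

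Against T cells 27 members reached the minimum, with Slc2a1 also below it. None was past the rule on the higher side, against 13.7% of 5540 genes, and Idh3a was past it on the lower side, against 11.7%. By sign, 8 were higher in every library (29.7% of all genes) and 5 lower (44.9% of all genes). The 8 were Gpi1, Pfkl, Cpt1a, Acadm, Hadha, Etfa, Etfb and Acaa2, and the 5 were Pfkp, Pgk1, Cs, Idh3a and Ogdh. With the other denominator 4 were higher, Pfkl, Cpt1a, Etfa and Acaa2, and 14 lower, all 7 TCA cycle genes among them. With TMM scaling 11 were higher and 3 lower, Pfkp, Pgk1 and Idh3a, and Sdha was among the higher ones. Both scalings move the ratios of all genes together, and shares over all genes were not counted under them.

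**Figure D2:**
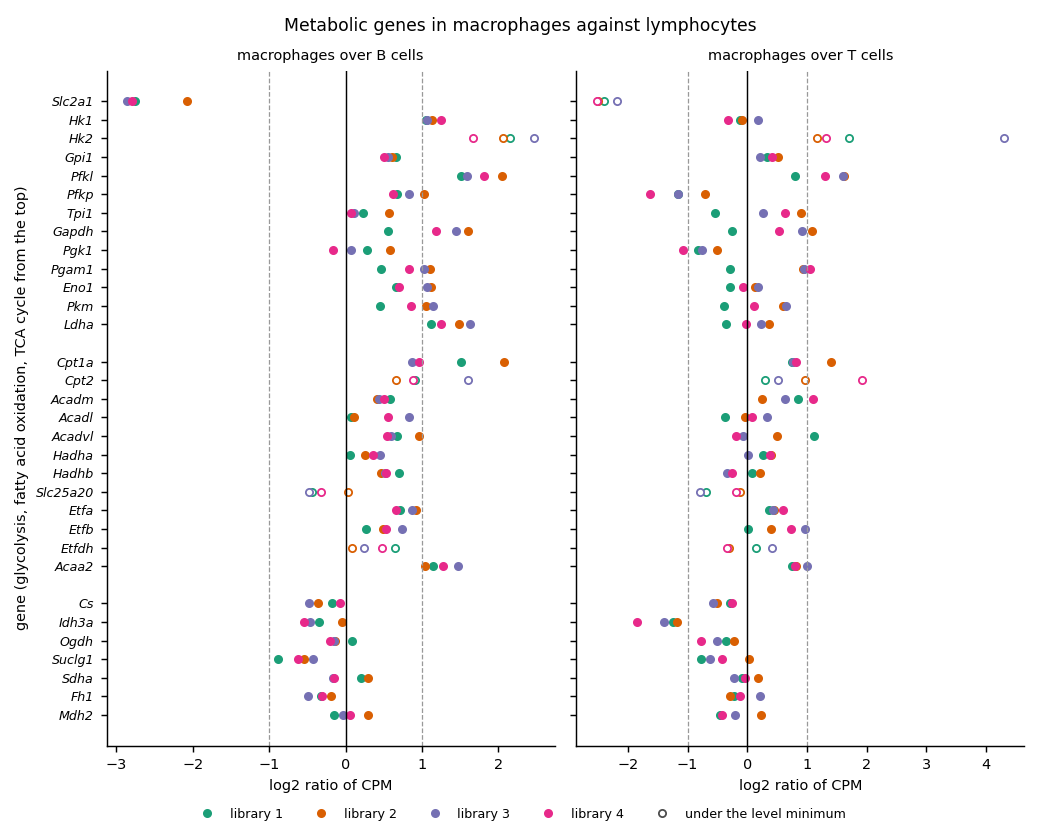
Log2 ratio of CPM of macrophages over B cells and over T cells (horizontal axes) for each of the 32 genes, with 1 point per library. Filled points are genes at the minimum of 20 CPM, hollow points are under it, and dashed lines mark 2-fold; Slc2a1 lies farthest to the left against B cells, and under the other denominator all ratios to B cells move left by about 0.40, which brings the medians of Tpi1, Pgk1, Acadl, Hadha, Etfdh, Sdha and Mdh2 below 0.

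At the entry of glucose, the transporter gene and the first enzyme went opposite ways against B cells. Slc2a1 encodes GLUT1, the glucose transporter of most growing cells, and had 4.22, 5.78, 4.13 and 3.10 CPM in macrophages, 28.8, 24.4, 29.8 and 21.3 CPM in B cells and 21.8, 32.1, 18.1 and 17.2 CPM in T cells. No macrophage value came near a lymphocyte value, and the ratio to B cells was -2.76, -2.08, -2.86 and -2.80 (median -2.78), its counting interval off 0 in all 4 libraries. After each barcode was thinned to 3000 UMIs, a Slc2a1 UMI was seen in 1.17, 1.95, 1.25 and 1.04% of macrophages, 7.30, 7.41, 8.33 and 4.28% of B cells and 4.72, 11.2, 3.82 and 6.72% of T cells. Thinning left out 85, 55, 24 and 29 macrophages, 11, 23, 47 and 24 B cells and 10, 6, 27 and 20 T cells with fewer UMIs. Without thinning, at median depths of 9508.5, 7076.5, 4859 and 6466 UMIs in B cells and 5226, 5170.0, 4119.5 and 5230.0 UMIs in T cells, the shares were 3.45, 7.11, 5.49 and 3.89% of macrophages, 26.6, 17.9, 15.4 and 12.5% of B cells and 12.1, 14.4, 5.70 and 10.1% of T cells. Slc2a1 was not past the rule after thinning or with a mitochondrial limit of 5%, because B cells of library 4 were then under the minimum, at 15.6 and 16.4 CPM from 12 and 5 UMIs. The ratios to B cells were -2.78, -2.02, -2.68 and -2.21 after thinning and -2.18, -2.03, -3.28 and -2.63 with that limit, each of them below -2.

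Hexokinases trap glucose in the cell as glucose 6-phosphate. Hk1, the widely expressed form, had 50.3, 41.8, 39.9 and 36.9 CPM in macrophages and 24.2, 19.0, 18.7 and 15.2 CPM in B cells, without overlap, at ratios of 1.05, 1.13, 1.07 and 1.25 (median 1.10). In T cells it had 54.4, 43.9, 34.7 and 45.5 CPM, within or close to the macrophage range (median ratio -0.11). Hk2, the inducible form, had 28.7, 24.6, 13.7 and 16.9 CPM in macrophages, 6.42, 5.79, 2.20 and 5.08 CPM in B cells and 8.16, 10.1, 0 and 6.16 CPM in T cells. All of its macrophage values lay above those of both lymphocyte classes, but 2 of them were under the minimum of 20 CPM. T cells of library 3 had 0 Hk2 UMIs, which counted as 3 allow up to 4.17 CPM.

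At the next steps, Pfkl had the highest median ratio to B cells of the members at the minimum. Gpi1, which turns glucose 6-phosphate into fructose 6-phosphate, had 372, 333, 299.8 and 303 CPM in macrophages, 234, 219, 203 and 213 CPM in B cells and 297, 233, 258 and 228 CPM in T cells, and all macrophage values were the higher ones. Pfkl and Pfkp encode the liver and platelet forms of phosphofructokinase, which commits sugar to glycolysis. Pfkl had 82.1, 96.1, 112 and 86.4 CPM in macrophages, 28.8, 23.2, 36.9 and 24.4 CPM in B cells and 46.2, 30.4, 36.1 and 34.5 CPM in T cells. Its ratios were 1.51, 2.05, 1.59 and 1.81 to B cells and 0.81, 1.62, 1.61 and 1.30 to T cells, without overlap of values in either. Pfkp had 42.5, 51.2, 35.8 and 30.2 CPM in macrophages and 93.8, 82.7, 79.2 and 92.3 CPM in T cells, at ratios of -1.15, -0.71, -1.16 and -1.62, so the 2 forms went opposite ways against T cells. In B cells Pfkp stood at 26.6, 25.01, 19.8 and 19.3 CPM, below the macrophages of every library (median ratio 0.75).

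Among the later steps, Gapdh carried a large part of the branch. Gapdh encodes glyceraldehyde-3-phosphate dehydrogenase, and had 644, 1856, 1629 and 1299 CPM in macrophages, 439, 612, 596 and 571 CPM in B cells and 767, 878, 867 and 899 CPM in T cells. Library 1 macrophages were far below the other 3 and below the T cells of their own library, which gave ratios to T cells of -0.25, 1.08, 0.91 and 0.53. Against B cells the ratios were 0.55, 1.60, 1.45 and 1.18. The gene supplied 29.4, 46.5, 46.4 and 44.9% of the glycolysis UMIs of macrophages. Without it, the other 12 glycolysis genes summed to 1544, 2139, 1878 and 1596 CPM in macrophages, 980.5, 1065, 986 and 972 CPM in B cells and 1802, 1675, 1558 and 1524 CPM in T cells, at median ratios of 0.82 and 0.17. Near-identical processed copies of Gapdh exist in the genome, so its level is uncertain to the extent that reads were shared with them. After thinning, a Gapdh UMI was seen in 79.1, 98.4, 97.5 and 96.1% of macrophages and 68.7, 81.2, 80.7 and 80.5% of B cells.

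Ldha, the muscle-type subunit of lactate dehydrogenase, had 278, 425, 379.7 and 304 CPM in macrophages and 128, 152, 122 and 127 CPM in B cells, again without overlap, at ratios of 1.12, 1.48, 1.63 and 1.25 (median 1.37). T cells had 354, 331, 324 and 309 CPM, inside the macrophage range. Pkm, which makes pyruvate, had 201, 380.4, 327 and 276 CPM in macrophages, 148, 183, 148 and 152 CPM in B cells and 263, 249.9, 208 and 255 CPM in T cells. Pkm and Eno1, the enolase one step before it, were lowest in library 1 in macrophages. Eno1 stood at 186, 370.5, 343 and 247 CPM in macrophages, 117, 170.3, 164 and 152 CPM in B cells and 226, 336, 301 and 259.7 CPM in T cells, so B cells were lower in every library. Pgam1, the phosphoglycerate mutase, had 104, 156, 138 and 124 CPM in macrophages, 75.4, 72.1, 67.8 and 69.6 CPM in B cells and 126, 81.1, 70.8 and 59.1 CPM in T cells. Every library but library 1 had more Pgam1 in macrophages than in T cells, and all 4 had more than in B cells.

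Pgk1 was the exception among these late enzymes. It encodes phosphoglycerate kinase, a step that yields ATP, and had 98.3, 124, 87.0 and 74.6 CPM in macrophages, 80.7, 83.3, 82.7 and 83.3 CPM in B cells and 173, 176, 147 and 158 CPM in T cells. T cells were above macrophages in every library, at ratios of -0.82, -0.51, -0.76 and -1.08, and B cells were within or near the macrophage range. Tpi1, triose-phosphate isomerase, had 96.7, 130.4, 97.4 and 93.9 CPM in macrophages and 82.2, 87.9, 89.8 and 89.4 CPM in B cells. Its ratios to B cells of 0.23, 0.57, 0.11 and 0.068 were above 0 in all 4 libraries. With the other denominator their median turned below 0, but they had no single sign.

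Fatty acid oxidation begins with carnitine transfer, and Cpt1a, the rate-limiting step of entry, was above both lymphocyte classes. It had 126, 60.2, 64.9 and 63.9 CPM in macrophages, 44.3, 14.3, 35.3 and 32.5 CPM in B cells and 74.8, 22.0, 37.5 and 35.7 CPM in T cells. Library 1 was highest and library 2 lowest in each of the 3 classes, and within each library macrophages were the highest class. Across libraries the macrophage values overlapped with those of T cells but not with those of B cells. Ratios were 1.51, 2.07, 0.87 and 0.96 to B cells and 0.74, 1.40, 0.76 and 0.81 to T cells. A Cpt1a UMI was seen after thinning in 31.0, 16.9, 16.7 and 17.3% of macrophages, 11.8, 3.62, 7.95 and 8.56% of B cells and 19.8, 7.14, 6.11 and 11.8% of T cells. The exchanger Slc25a20, which carries acylcarnitine across the inner membrane, and Cpt2, which removes the carnitine, were low. Slc25a20 had 21.5, 13.2, 15.6 and 15.7 CPM in macrophages and 29.1, 12.8, 21.5 and 19.3 CPM in B cells. Cpt2 had 14.1, 11.6, 10.8 and 11.7 CPM in macrophages and 7.46, 7.24, 3.31 and 6.09 CPM in B cells. Most values of both genes were under 20 CPM, so only the outer transferase of this shuttle was well measured.

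The acyl-CoA dehydrogenases each act on a different chain length. Acadm, for medium chains, had 67.4, 55.1, 54.7 and 51.4 CPM in macrophages, 45.1, 41.6, 40.2 and 36.1 CPM in B cells and 36.7, 45.6, 34.7 and 23.4 CPM in T cells. Acadvl, for very long chains, had 39.7, 34.8, 33.6 and 32.8 CPM in macrophages and 24.9, 17.8, 22.0 and 22.3 CPM in B cells; Dvl2 overlaps its exons on the other strand. Both lay above every B cell value. Acadl, for long chains, had 42.5, 64.9, 88.7 and 81.5 CPM in macrophages, 40.4, 60.2, 49.6 and 55.3 CPM in B cells and 54.4, 65.9, 69.4 and 76.3 CPM in T cells. It was lowest in library 1 and overlapped with both lymphocyte classes, and its small ratios to B cells (median 0.33) turned round on the median with the other denominator.

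Hadha and Hadhb encode the subunits of the trifunctional protein, which performs the next steps for long chains. Hadha had 66.2, 72.3, 69.0 and 71.0 CPM in macrophages, 63.6, 60.8, 50.2 and 55.3 CPM in B cells and 54.4, 54.0, 68.0 and 54.2 CPM in T cells. Its macrophage levels spanned 1.09-fold across libraries, the narrowest of any member in that class. Hadhb had 104, 85.0, 70.4 and 68.2 CPM in macrophages, 63.9, 61.6, 49.1 and 47.2 CPM in B cells and 97.9, 72.6, 88.9 and 81.2 CPM in T cells. Both were above B cells in every library, Hadha by a median of 0.30 that turned round with the other denominator, and Hadhb by 0.52.

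Acaa2 encodes the mitochondrial thiolase that cuts off acetyl-CoA. Its level was 94.6, 93.6, 124 and 123 CPM in macrophages, 42.8, 45.5, 44.6 and 50.3 CPM in B cells and 55.8, 52.3, 61.1 and 70.2 CPM in T cells, with no overlap between macrophages and either class. Ratios were 1.14, 1.04, 1.47 and 1.28 to B cells and 0.74, 0.82, 1.01 and 0.79 to T cells. It was past the rule against B cells with TMM scaling, as in the scaling by all UMIs, but not after thinning or without macrophages and lymphocytes that carried each other's markers.

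Electrons from the dehydrogenases pass through electron transfer flavoprotein, whose subunits are encoded by Etfa and Etfb, to the oxidoreductase encoded by Etfdh. Etfa had 63.6, 70.5, 58.8 and 55.1 CPM in macrophages, 38.8, 37.0, 31.97 and 34.5 CPM in B cells and 49.0, 50.7, 43.1 and 35.7 CPM in T cells. Etfb had 105, 121, 151 and 153 CPM in macrophages, 87.0, 86.2, 89.8 and 105 CPM in B cells and 103, 91.2, 76.4 and 91.1 CPM in T cells. In macrophages Etfa was highest in library 2 and Etfb in library 4, so the 2 subunits of one protein did not follow the same order of libraries. Etfdh had 20.4, 14.3, 13.9 and 13.1 CPM in macrophages and 13.0, 13.4, 11.6 and 9.14 CPM in B cells, mostly under the minimum.

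None of the 7 TCA cycle genes was higher in macrophages than in B cells of every library. Suclg1, a subunit of succinyl-CoA synthetase, had 44.1, 78.6, 69.1 and 66.8 CPM in macrophages, 81.8, 115, 92.6 and 103 CPM in B cells and 74.8, 76.0, 106 and 88.6 CPM in T cells. All macrophage values were below all B cell values, at ratios of -0.89, -0.55, -0.43 and -0.62 (median -0.58). Idh3a, the catalytic subunit of the NAD-dependent isocitrate dehydrogenase, had 18.02, 28.8, 19.8 and 17.6 CPM in macrophages, 23.0, 29.8, 27.0 and 25.4 CPM in B cells and 42.2, 64.2, 51.4 and 62.8 CPM in T cells. It was the member past the rule against T cells, at ratios of -1.25, -1.17, -1.39 and -1.85, and no T cell value overlapped with a macrophage value. With TMM scaling, or among barcodes of 5000 to 20000 UMIs, no member was past that rule on the lower side.

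Cs encodes citrate synthase, the entry of acetyl-CoA, and had 66.1, 49.0, 37.8 and 35.4 CPM in macrophages, 74.6, 63.1, 52.4 and 37.1 CPM in B cells and 80.2, 69.2, 55.6 and 41.9 CPM in T cells. In all 3 classes library 1 was highest and library 4 lowest. Its ratios were -0.18, -0.36, -0.48 and -0.078 to B cells and -0.29, -0.51, -0.57 and -0.26 to T cells, and with TMM scaling the single sign was lost in both. Fh1, fumarate hydratase, had 20.3, 36.5, 28.1 and 28.9 CPM in macrophages and 25.4, 41.6, 39.1 and 35.5 CPM in B cells, lower in macrophages of every library (median ratio -0.32). Ogdh, a component of the 2-oxoglutarate dehydrogenase complex, had 89.6, 60.3, 54.2 and 52.1 CPM in macrophages, 84.8, 66.4, 60.1 and 59.9 CPM in B cells and 114, 69.2, 76.4 and 88.6 CPM in T cells.

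Sdha and Mdh2 were close to equal in macrophages and B cells. Sdha, the flavoprotein subunit of succinate dehydrogenase, had 147, 117, 87.1 and 84.5 CPM in macrophages and 129, 95.3, 97.0 and 93.4 CPM in B cells, at ratios of 0.19, 0.30, -0.16 and -0.15. Mdh2, the mitochondrial malate dehydrogenase, had 99.2, 152, 132 and 120.4 CPM in macrophages and 109.9, 124, 135 and 115 CPM in B cells, at ratios of -0.15, 0.29, -0.037 and 0.06. Neither had 1 sign in every library, and with the other denominator both were lower in macrophages of every library.

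The make-up of 3 gene families differed between the classes. Among Slc2a1, Slc2a3 and Slc2a6, 3 glucose transporter genes, Slc2a6 supplied 78.5, 86.1, 85.9 and 89.6% of the UMIs in macrophages, 5.96, 8.43, 9.88 and 17.9% in B cells and 0, 0, 4.35 and 0% in T cells. The T cell shares rest on only 35, 49, 23 and 44 UMIs of the 3 genes. Their exact intervals for Slc2a6 reach up to 10.0, 7.25, 21.9 and 8.04%. Slc2a6 encodes GLUT6, a transporter found mainly on internal membranes, and its level was 18.8, 36.9, 26.6 and 28.0 CPM in macrophages, 2.69, 3.10, 4.41 and 7.62 CPM in B cells and 0, 0, 1.39 and 0 CPM in T cells. Slc2a1 supplied 17.7, 13.5, 13.3 and 9.92% in macrophages, 63.9, 66.3, 66.7 and 50% in B cells and 45.7, 38.8, 56.5 and 31.8% in T cells. Slc2a3, the GLUT3 gene, supplied 3.79, 0.464, 0.768 and 0.475% in macrophages, 30.1, 25.3, 23.5 and 32.1% in B cells and 54.3, 61.2, 39.1 and 68.2% in T cells. Slc2a6 thus supplied the most UMIs of the family in macrophages of all 4 libraries and in no lymphocyte set.

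Among the hexokinases, Hk1 supplied 50.6, 45.5, 56.3 and 50.9% of UMIs in macrophages, 74.7, 71.9, 89.5 and 75% in B cells and 83.3, 78.8, 96.2 and 88.1% in T cells. Hk3, a form known from myeloid cells, supplied 20.5, 27.7, 24.3 and 25.8% in macrophages, 5.53, 6.25, 0 and 0% in B cells and 4.17, 3.03, 3.85 and 0% in T cells. B cells of libraries 3 and 4 had 0 Hk3 UMIs of 38 and of 40 hexokinase UMIs, for which the exact interval reaches up to 9.25 and 8.81%. All macrophage shares of Hk3 lay above all lymphocyte shares. Of the phosphofructokinase UMIs, Pfkl supplied 63.0, 63.5, 74.3 and 72.1% in macrophages, 49.7, 47.9, 62.6 and 55.2% in B cells and 33.0, 26.1, 31.3 and 26.2% in T cells. Pfkp supplied 32.6, 33.9, 23.7 and 25.2%, 45.9, 51.7, 33.6 and 43.7% and 67.0, 71.0, 68.7 and 70.1% in the same order of classes, so Pfkl led in macrophages and Pfkp in T cells. Ldha supplied at least 95.5% of the Ldha and Ldhb UMIs in each class and library, and there the classes did not differ by much.

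**Figure D3:**
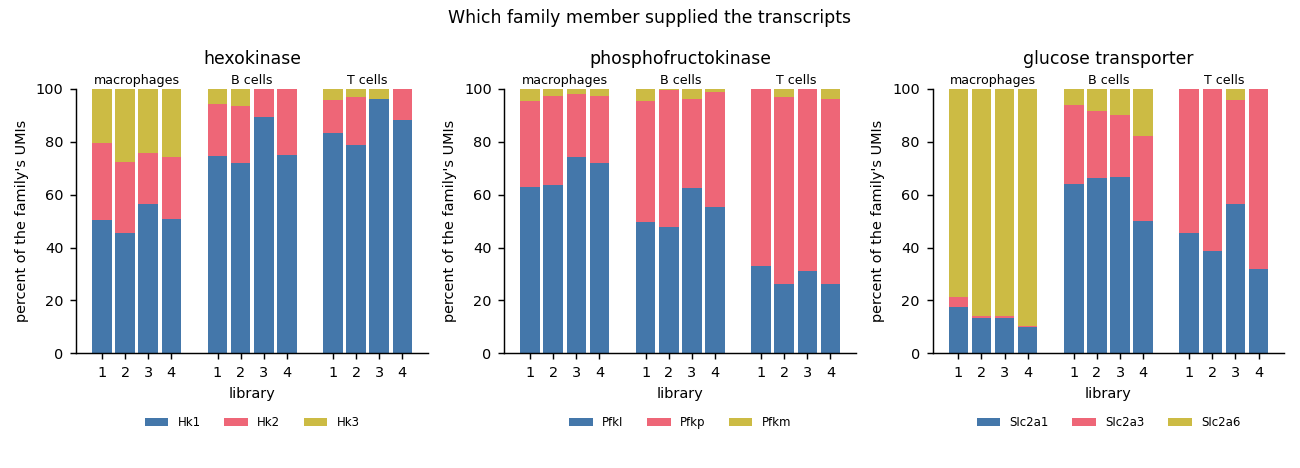
Percent of each family's UMIs (vertical axes, bars stacked to 100) supplied by each gene, for hexokinases, phosphofructokinases and glucose transporters in macrophages, B cells and T cells of libraries 1 to 4. Slc2a6 takes 78.5 to 89.6% of the transporter UMIs in macrophages, and Pfkp takes 67.0 to 71.0% of the phosphofructokinase UMIs in T cells.

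Genes beside the 32 members in the same pathways were read with the same rule. Over all genes the rule was met by 16% on the higher and 9.54% on the lower side against B cells, and by 13.7 and 11.7% against T cells. Against B cells, 1 of 2 further glycolysis genes at the minimum was past it on the higher side, 0 of 7 pyruvate genes, 4 of 11 fatty acid oxidation genes, 2 of 6 peroxisomal genes, 3 of 13 TCA-related genes, 2 of 6 pentose phosphate genes and 1 of 5 regulators, with 1 regulator past it on the lower side. Against T cells the corresponding counts on the higher side were 0 of 2, 0 of 7, 2 of 11, 1 of 5, 3 of 13, 2 of 6 and 1 of 5, again with 1 regulator on the lower side. By sign, 8 of the 13 TCA-related genes were higher than in B cells in every library and 1 lower (39.7 and 39% of all genes). Against T cells 6 were higher and 1 lower (29.7 and 44.9% of all genes). Their median ratios were 0.36 and 0.31 with scaling by all UMIs, so by that measure this list was not lower as the 7 members were. The list is wider than the cycle, with cytosolic Idh1 among it, and its sum was not formed. The other denominator moved ratios by medians of -0.40 against B cells and -0.25 against T cells. The ratios of this list under it are not given here.

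Several of these genes differed more than any member. Cd36, a receptor that takes up fatty acids and oxidized lipoproteins, had 795, 506, 357 and 427 CPM in macrophages and 49.6, 31.6, 11.0 and 21.3 CPM in B cells, a median ratio of 4.15. Abcd2, a peroxisomal fatty acid transporter, had 117, 77.8, 74.1 and 81.4 CPM in macrophages and 2.69, 0.827, 1.65 and 1.02 CPM in B cells (median ratio 5.70). In B cells both genes stood at a small part of their macrophage level, as Lyz2 did, and whether those UMIs came from B cells was not tested. Crat, Acsl4 and Echs1, for carnitine acetyl transfer, fatty acid activation and enoyl-CoA hydration, and peroxisomal Hsd17b4 were higher at medians of 1.95, 2.07, 1.64 and 1.46.

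Among the TCA-related and pentose phosphate genes, 5 were past the rule against both lymphocyte classes. Idh1, the cytosolic NADP-dependent isocitrate dehydrogenase, had 375, 269, 243 and 256 CPM in macrophages and 17.2, 11.6, 10.5 and 9.65 CPM in B cells (median ratio 4.51). Acly, ATP citrate lyase, and Idh2, the mitochondrial NADP-dependent form, were at median ratios of 2.27 and 1.86. The pentose phosphate genes Pgd and G6pdx, which also yield NADPH, were at 1.79 and 1.67. Against T cells the medians of these genes were 4.34, 2.17, 1.78, 1.94 and 1.48.

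Of the regulators, Mlxipl, which encodes the glucose-sensing factor ChREBP, had 205, 142, 93.6 and 110.2 CPM in macrophages and 12.2, 5.17, 9.92 and 7.11 CPM in B cells (median ratio 3.98; 4.18 against T cells). Myc, a driver of growth and of glycolytic genes, was lower, at 27.4, 25.2, 18.3 and 17.2 CPM in macrophages and 74.3, 74.0, 84.3 and 70.1 CPM in B cells (median ratio -1.79; -1.67 against T cells). Slc16a3, the lactate exporter MCT4, had 25.7, 26.3, 21.0 and 20.0 CPM in macrophages and 3.88, 1.65, 0 and 1.52 CPM in B cells, where the 0 UMIs of library 3, counted as 3, allow up to 1.65 CPM.

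Within macrophages, 3 sets were cut by marker genes: at least 3 UMIs of Timd4, a receptor of resident large peritoneal macrophages, at least 2 of Folr2, a folate receptor gene, or at least 3 of Ccr2, a monocyte chemokine receptor. They held 122, 541, 2069 and 2655, then 854, 952, 321 and 303, then 169, 801, 144 and 285 barcodes, against 523, 2243, 1971 and 1973 remaining macrophages past none of the cutoffs. The sets share barcodes, for example 82, 165, 26 and 44 between Folr2 and Ccr2. Cutoffs in UMIs also choose deeper barcodes: median UMIs in library 1 were 8846, 9124.5 and 10800.0 in the Timd4, Folr2 and Ccr2 sets and 6380.0 in the remaining macrophages. After thinning to 3000 UMIs no member was past the rule given next in any set, and the members with 1 sign in every library were 7 higher and 3 lower for Timd4, 10 and 0 for Folr2, and 9 and 2 for Ccr2. Shares over all genes were not counted after thinning, so these counts have no background.

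In these sets the 32 genes differed little. No member was 1.5-fold apart in the same direction in every library from the remaining macrophages, on either side, in the Timd4, Folr2 or Ccr2 set. Over all genes that rule was rarely met too. It was met by 0.279% on the higher and 0.172% on the lower side of 4653 genes for Timd4, by 0.435 and 0.124% of 4830 for Folr2, and by 0.414 and 0.31% of 4835 for Ccr2. The members' counts of 0 are therefore close to the background.

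By sign alone, 10 of 25 members at the minimum were higher in the Timd4 set in every library (28.7% of all genes) and 2 lower (7.91%). In the Folr2 set 17 of 26 were higher (43.1% of all genes) and 0 lower (8.34%), and in the Ccr2 set 14 of 26 were higher (29.8% of all genes) and 1 lower (9.06%). These counts depend on scaling: with TMM, which moved the medians of all genes by -0.060, -0.17 and -0.13, they were 5 and 4 for Timd4, 10 and 1 for Folr2, and 6 and 3 for Ccr2. The shares of all genes with TMM were not counted.

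Branch sums gave median ratios to the remaining macrophages of 0.033, 0.038 and 0.12 for glycolysis, fatty acid oxidation and the TCA cycle in the Timd4 set. The medians were 0.19, 0.089 and 0.28 in the Folr2 set and 0.25, 0.074 and 0.30 in the Ccr2 set. All 3 fatty acid oxidation medians turned below 0 with TMM scaling, as did that of glycolysis in the Timd4 set. TCA cycle genes of the Folr2 set were at 503, 579.7, 523 and 494 CPM, against 443, 503, 403 and 384 CPM in the remaining macrophages, above them in every library also with TMM. Median ratios over all genes were 0.061, 0.14 and 0.10 in the 3 sets, and those over the members 0.080, 0.18 and 0.17.

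Pgk1 and Ogdh had the highest medians in the Folr2 set. Pgk1 had 98.2, 148, 123 and 110.4 CPM there and 87.2, 115, 82.1 and 68.6 CPM in the remaining macrophages, at ratios of 0.17, 0.36, 0.58 and 0.69, higher in every library under both other scalings. In the Ccr2 set Pgk1 was at 118, 123, 125 and 111 CPM, with ratios of 0.43, 0.088, 0.61 and 0.69. Ogdh had 91.9, 73.9, 72.8 and 63.7 CPM in the Folr2 set and 80.7, 52.0, 48.3 and 47.3 CPM in the remaining macrophages (ratios 0.19, 0.51, 0.59 and 0.43). In the Timd4 set its ratios were 0.45, 0.50, 0.24 and 0.20, so Ogdh and Cs, with 0.12, 0.40, 0.23 and 0.058 in the Timd4 set and 0.40, 0.16, 0.81 and 0.37 in the Ccr2 set, had 1 sign in each of the 3 sets, under every scaling.

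The 2 phosphofructokinase genes parted between the sets. Pfkl was at 55.8, 81.6, 79.1 and 72.9 CPM in the Ccr2 set and 88.5, 98.0, 103 and 77.1 CPM in the remaining macrophages, lower in every library at -0.66, -0.26, -0.38 and -0.08, and it was higher in the Timd4 set at 0.12, 0.13, 0.23 and 0.27. Pfkp was at 59.6, 53.1, 49.4 and 50.5 CPM in the Ccr2 set and 42.5, 52.1, 35.9 and 28.7 CPM in the remaining macrophages, higher at 0.49, 0.029, 0.47 and 0.82, a sign that library 2 lost with TMM scaling. In the Timd4 set Pfkp was lower at -0.76, -0.20, -0.096 and -0.008. The first of these rests on 28 Pfkp UMIs in the Timd4 set, and the last is close to no difference. Eno1 was likewise lower in the Timd4 set, at -0.20, -0.36, -0.17 and -0.12, and Hk1 higher, at 0.66, 0.47, 0.23 and 0.25. In the same sets the share of barcodes with at least 2 UMIs of Mki67 and Top2a together, genes of dividing cells, was 1.64, 10.5, 4.49 and 4.33% for Timd4, 1.52, 12.1, 11.5 and 14.5% for Folr2, 1.18, 7.12, 18.8 and 18.6% for Ccr2, and 0.956, 3.79, 4.21 and 3.14% for the remaining macrophages. Without those barcodes no member was past the rule, and the counts by sign were 10 and 2 for Timd4, 17 and 0 for Folr2 and 14 and 1 for Ccr2, the counts with them. The shares of all genes were not counted without those barcodes.

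**Figure D4:**
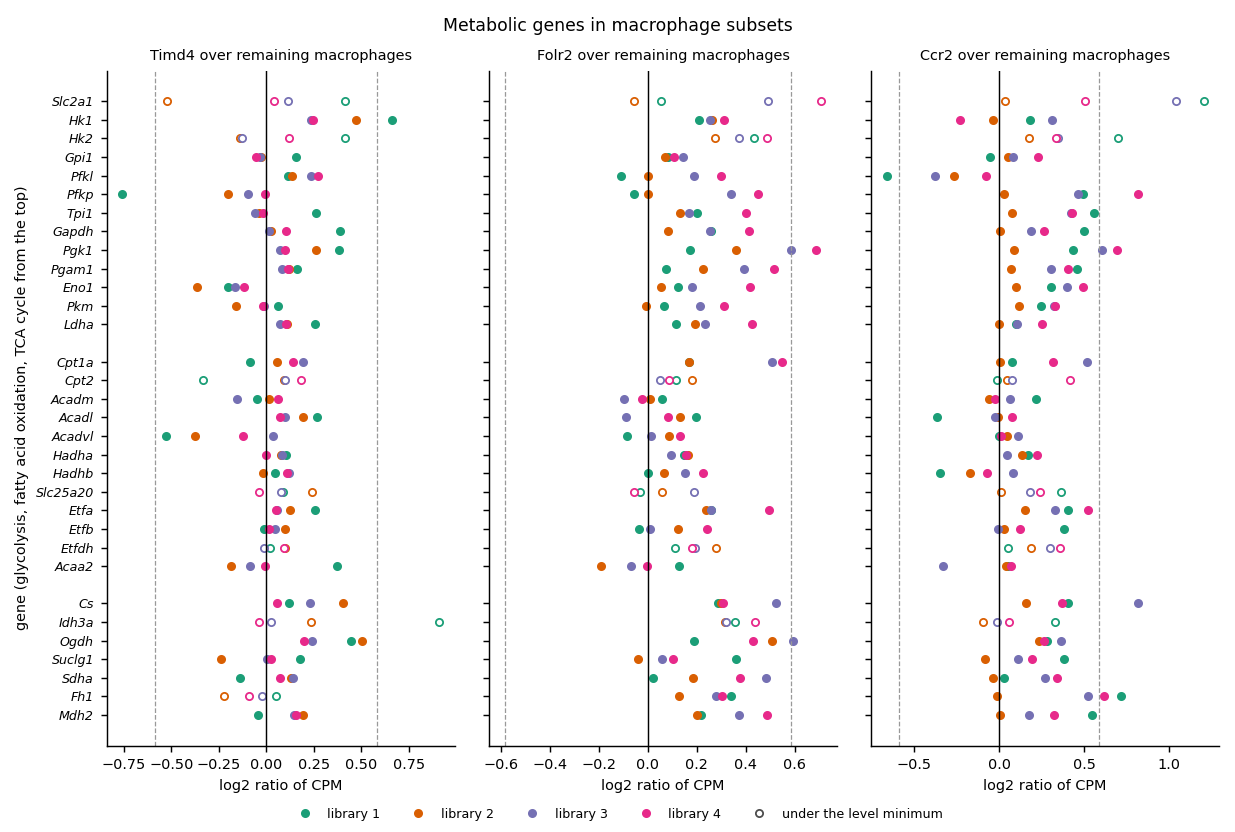
Log2 ratio of CPM of the Timd4, Folr2 and Ccr2 sets over the remaining macrophages (horizontal axes) for each of the 32 genes, with 1 point per library. Hollow points are genes under 20 CPM and dashed lines mark 1.5-fold; no gene at the minimum lies past a line in the same direction in all 4 libraries, and small positive medians such as that of glycolysis in the Timd4 set turn below 0 with TMM scaling.

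Across the libraries, the share of members whose macrophage level varied was close to that of all genes. Of 30 members that reached 20 CPM in the highest library, 20 differed at least 1.5-fold between the highest and the lowest library, 66.7% of them, where 65.3% of 6300 genes did. They were 8 of 12 glycolysis genes, 5 of 11 fatty acid oxidation genes and 7 of 7 TCA cycle genes. Library 1 decided much of this for members and other genes alike: without it 4 of 28 members varied by that measure (14.3%), where 14% of 5449 genes did. Without library 2 it was 12 of 29 (41.4%), where 61.1% of 6223 genes varied. The counting interval of library 1 lay apart from those of all other libraries in 22 of the 30 members (73.3%) and in 76.9% of all genes. It was the highest library for 12 of the 30 and the lowest for 12 as well, against 65.6 and 21.8% of all genes.

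Library 1 also differed from the others in quality and make-up. Of its barcodes 57.7% were kept, against 80.7 to 89.0% in the other libraries, 1936 were over the mitochondrial limit, against 296 to 495, and kept barcodes had a median of 6.06% mitochondrial UMIs, against 3.89 to 4.34%. The Folr2 set held 55.5% of its macrophages and the Timd4 set 7.93%, where the Timd4 set held 12.8, 47.7 and 52.9% in libraries 2 to 4. With a mitochondrial limit of 5%, 19 members varied across libraries by the same measure, and within the Timd4 set, the Folr2 set and the remaining macrophages alone 18, 17 and 20 did. Shares over all genes were not counted in these settings, so these counts have no background. The spreads above are differences between libraries, and group and library cannot be told apart.

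Gapdh had the widest range, 2.88-fold, or 1.43-fold without library 1. Hk2, Cpt1a and Acadl spanned 2.10-fold, 2.10-fold and 2.09-fold, and Hadha, at 1.09-fold, the least. Without library 1, Cpt1a spanned 1.08-fold. Summed by branch, the highest macrophage library exceeded the lowest 1.83-fold in glycolysis, 1.10-fold in fatty acid oxidation and 1.29-fold in the TCA cycle. The fatty acid oxidation sum was even while its members differed in opposite directions: Cpt1a, Hadhb and Acadm were highest in library 1, where Acadl and Etfb were lowest.

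B cells and T cells spanned less in glycolysis. In B cells the corresponding spans were 1.18-fold, 1.11-fold and 1.14-fold, and in T cells 1.06-fold, 1.18-fold and 1.13-fold. Of the 30 members at the minimum in macrophages, the same library was highest in macrophages and in B cells for 21 (70.0%), against 67.2% of all genes, and in all 3 classes for 12, against 3149 of the 6300 genes. After thinning to 3000 UMIs, which removes the difference in depth, the median macrophage still had 6, 11, 10 and 8 glycolysis UMIs, against 4, 5, 4.5 and 4 in B cells and 6, 7, 6 and 8 in T cells.

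**Figure D5:**
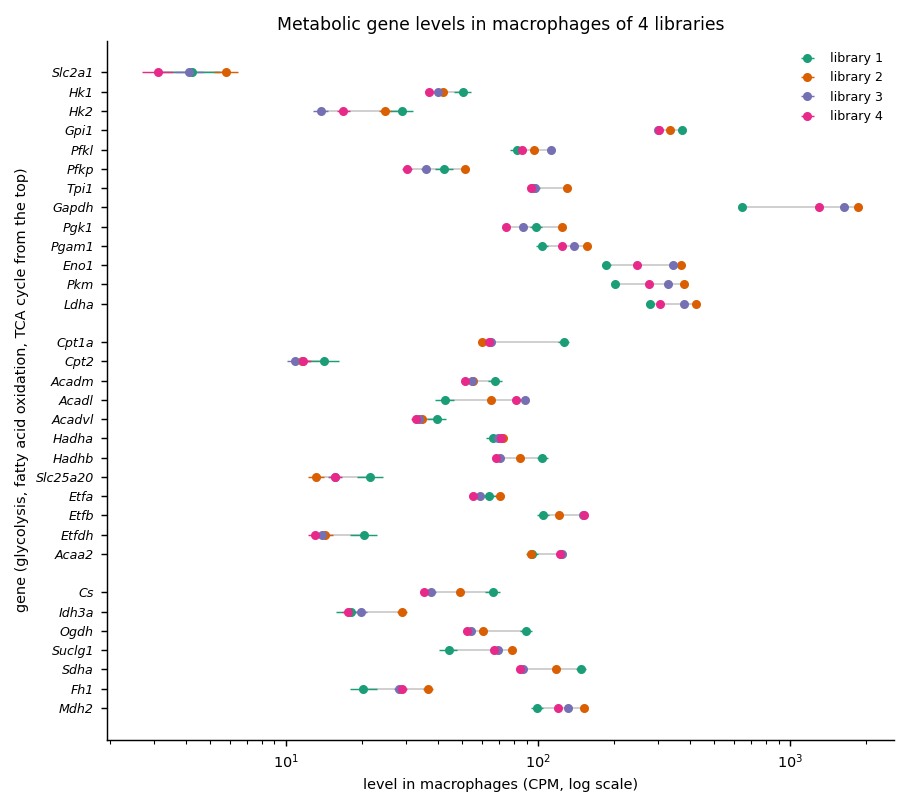
Level in macrophages in CPM (horizontal axis, log scale) of the 32 genes in each of 4 libraries, with bars for the exact 95% counting interval and a grey line from the lowest to the highest library. Gapdh spans 644 to 1856 CPM with library 1 lowest, Cpt1a spans 60.2 to 126 CPM with library 1 highest, and Hadha lies between 66.2 and 72.3 CPM.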

How the data were processed

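Viable F4/80+ peritoneal cells of 4 samples were profiled with 10x Genomics 3' V3 chemistry. A matrix of UMI counts for 26811 barcodes, with 265902275 UMIs in whole numbers, was deposited by the authors; its file headers name Cell Ranger 5.0.1. CASAVA 1.8, Seurat and mm10 appear in the submitters' processing notes, with no role for each. No strand or intron setting of the counting was given in the sources used here.

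Barcodes with at least 500 genes and at most 10% mitochondrial UMIs were kept, 3611, 6023, 5311 and 5919 in libraries 1 to 4, with median depths of 8195, 11515, 13306 and 12409 UMIs. No doublet caller was run. Barcodes with Adgre1 and a B or T cell UMI, 517, 316, 239 and 188 of them, entered no class, and 52 barcode sequences occurred in more than 1 library. UMIs were summed per library and class, with Clopper-Pearson or Poisson intervals, and ratios used a prior count of 0.5. As barcodes are not replicates, no p-value was computed, and differences between groups were not computed because suffixes could not be mapped to samples. A ratio was formed where both sets had 20 barcodes. All 32 members are named, as are paralogues of their families and, per list and contrast, up to 4 other pathway genes past the rule of size. The members and lists were chosen with earlier results of these data known. Scripts were tested on simulated counts. Positions and overlaps come from GENCODE M21, which matched 31107 of 31253 gene IDs and 32 of 32 members. Versions were python 3.11.15, numpy 2.4.6, scipy 1.17.1, pandas 2.3.3, matplotlib 3.10.9, R 4.3.3 and edgeR 4.0.16, the last for TMM factors only.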

Additional observations from a re-analysis of the deposited data

How the results depend on the processing

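Of 260 recomputed branch ratios 240 moved by less than their spread over libraries, 17 moved further and 3 moved further and changed sign; glycolysis in the Timd4 set, near 0, also turned below 0 with TMM scaling, to -0.028. TMM scaling gave 2 members higher than B cells, 1 higher and 0 lower than T cells, T cell ratios of 0.72 for fatty acid oxidation and -0.10 for the TCA cycle, fatty acid oxidation ratios of -0.023 (Timd4), -0.030 (Folr2) and -0.047 (Ccr2), TCA ratios of 0.046, 0.16 and 0.084 in these sets, and 0.048 for glycolysis in the Ccr2 set. A denominator without mitochondrial, ribosomal protein, immunoglobulin and Apoe genes gave 1 member higher than B cells, B cell ratios of 0.62, 0.24 and -0.55 for glycolysis, fatty acid oxidation and the TCA cycle, 2 members lower than T cells, T cell ratios of 0.16 and -0.65 for fatty acid oxidation and the TCA cycle, and 0.0039 for fatty acid oxidation in the Timd4 set. A mitochondrial limit of 5% gave 1 member higher, Acaa2, and 0 lower than B cells and 0.70 for fatty acid oxidation. Thinning to 3000 UMIs gave 0 members lower than B cells and 0.018 for fatty acid oxidation in the Timd4 set, barcodes of 5000 to 20000 UMIs 0 lower than T cells and 0.021 for that branch and set, and barcodes past 1 subset cutoff only 0.020 and 0.071 for fatty acid oxidation and the TCA cycle of that set. A minimum of 5 CPM, or none, gave 1 higher and 2 lower than T cells. A 1.5-fold limit gave 8 higher than B cells, and 3 higher and 2 lower than T cells. Leaving out 1 library gave 0 to 1 higher and 1 to 2 lower than T cells. Between 4 and 20 members then varied across libraries. Shares over all genes were not counted for the members past the rule in any of these settings, so those counts have no background. For the members that varied they were counted only without library 1 or library 2. Apart from the changed totals, the causes were not tested. Without Gapdh, without macrophages and lymphocytes that carried each other's markers, or without lymphocytes that carried markers of both kinds, all chosen after seeing the data, no median branch ratio changed sign. No paired analysis was possible because the results come from no test: class ratios were formed within each library, and each group has 1 sample. B and T cells limit precision: their few barcodes leave genes near 20 CPM with a handful of UMIs.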

Other observations

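Macrophages with at least 2 UMIs of Mki67 and Top2a together, genes of dividing cells, numbered 20, 263, 220 and 241 in libraries 1 to 4, and were compared with the other macrophages of their library, a comparison chosen after values were seen. Their glycolysis genes summed to 2092, 4418, 3825 and 3447 CPM, against 2189, 3947, 3481 and 2854 CPM in the other macrophages. TCA cycle genes stood at 505, 618, 487 and 471 CPM in cycling macrophages and at 485, 511, 423 and 401 CPM in the others. No member of 26 at the minimum was 1.5-fold higher in every library, where 4.83% of 5008 genes were, and 8 (30.8%) were higher by sign in every library, where 29.9% of genes were. Acadl had log2 ratios of 1.12, 0.75, 0.63 and 0.51, higher in each library. Pgk1, Fh1 and Tpi1 had median log2 ratios of 0.72, 0.70 and 0.54, but in library 1, with 20 cycling barcodes, all 3 were below 0.

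Barcodes that met the macrophage gate but exceeded the mitochondrial limit numbered 547, 187, 155 and 315. Their glycolysis genes summed to 1628, 2431, 2692 and 2108 CPM, lower than in kept macrophages of every library. By their selection these barcodes had more mitochondrial UMIs, which lowers the CPM of other genes. No value with mitochondrial UMIs left out of the totals is given here. Fatty acid oxidation genes summed to 683, 621, 666 and 715 CPM and TCA cycle genes to 412, 559, 427 and 394 CPM.

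Kept barcodes in no class numbered 1381, 1129, 514 and 489. Glycolysis genes summed to 1871, 3431, 3151 and 2758 CPM in them, between the B cells and the macrophages of their libraries.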
